A study of Homo sapiens with 6 samples.

Results

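Box C/D small nucleolar RNAs (snoRNAs) were examined in Nm-mut-seq of chromatin-associated RNA (caRNA). The genes were chosen by annotation: GENCODE release 44 genes of type snoRNA whose name begins with SNORD, on their own strand, without U3 (SNORD3A, SNORD3B-1, SNORD3B-2, SNORD3C, SNORD3D), SNORD13, SNORD14A to SNORD14E, SNORD17, SNORD22, SNORD118 and the snoRNAs inside GAS5. Of 313 annotated SNORD genes, 16 were left out and 297 remained. In the imbalanced dNTP table, 147 of the 297 genes held 4879 of the 176343 listed positions. In the balanced dNTP table, 3251 of 246881 positions fell in 138 of the genes. No position of either table was assigned to 147 genes. SNORD38B is annotated under a pair of overlapping identifiers, both among the 297, and was counted once among the genes with data. Its other identifier is among those without an assigned position, although it overlaps listed ones.

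The RNA came from the human hepatocellular carcinoma line HepG2, with 3 replicates described as biological. The ligated RNA of each replicate was split between a reverse transcription with imbalanced dNTP (dATP at 1 mM, the other nucleotides at 2 µM) and one with balanced dNTP (dATP at 1 mM, the others at 1000 µM), which gave 6 libraries. In the imbalanced reaction the enzyme tends to put in A opposite a 2′-O-methylated base, so that G, A and C appear as T, and the balanced dNTP library is the input. No genotype, drug or time distinguished the libraries, and a single cell line was used. Before library construction, ribosomal RNA (rRNA) was depleted and RNA shorter than 200 nt was removed. Of the 147 genes listed, 143 are shorter than 200 nt, with a median of 80 nt and a range of 64 to 222 nt. Among the liver genes checked, positions were listed under imbalanced dNTP in APOB (6226), AFP (1122), ALB (806), SERPINA1 (242) and APOA1 (6) and in none of TTR. In bulk RNA, fewer cells that hold an RNA and less of that RNA per cell cannot be told apart.

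Box C/D snoRNAs guide 2′-O-methylation. Each carries box C near its 5′ end and box D near its 3′ end, which come together in a folded stem, and most also carry internal copies named C′ and D′. The fold binds SNU13, NOP56, NOP58 and the methyltransferase FBL, and a stretch upstream of box D or D′ pairs with rRNA or with a small nuclear RNA and places the target nucleotide in the enzyme. Most human box C/D snoRNAs are cut out of the introns of host genes, many of which encode ribosomal proteins or are noncoding RNAs of the SNHG family. The question addressed was how deeply these RNAs were read and how their bases behaved in the assay, gene by gene and in boxes C and D against the rest of the gene.

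The following sequences, from hg38 and written as RNA, are those of deep genes on which the results turn, with SNORD28B, which is a sequence relative of SNORD28. Capitals mark box C (AUGAUGA or GUGAUGA, starting within the first 20 nt) and box D (CUGA, the last match that starts within the last 20 nt), searched on the strand of the gene.
SNORD26, chr11:62855292-62855366, minus strand: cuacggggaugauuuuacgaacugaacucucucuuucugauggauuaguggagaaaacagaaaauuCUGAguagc
SNORD27, chr11:62855012-62855083, minus strand: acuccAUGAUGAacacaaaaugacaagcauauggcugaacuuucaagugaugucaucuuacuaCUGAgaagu
SNORD28, chr11:62854621-62854695, minus strand: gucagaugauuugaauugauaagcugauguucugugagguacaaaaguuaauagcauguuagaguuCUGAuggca
SNORD28B, chr6:156378750-156378824, plus strand: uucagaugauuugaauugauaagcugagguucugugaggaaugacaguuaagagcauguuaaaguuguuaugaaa
SNORD12C, chr20:49278940-49279028, plus strand: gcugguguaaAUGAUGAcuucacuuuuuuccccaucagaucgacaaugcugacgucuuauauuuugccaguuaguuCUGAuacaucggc
SNORD104, chr17:64146083-64146152, plus strand: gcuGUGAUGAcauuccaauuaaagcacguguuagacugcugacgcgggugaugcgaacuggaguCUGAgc
SNORD10, chr17:7576811-7576952, plus strand: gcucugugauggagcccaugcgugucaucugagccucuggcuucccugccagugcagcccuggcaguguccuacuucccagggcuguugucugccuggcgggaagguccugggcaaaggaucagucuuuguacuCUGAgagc
Of the 297 genes, 189 held box C by these letters (63.6%), 271 held box D (91.2%) and 184 held both. In 214 box H/ACA snoRNA genes, the other large snoRNA class, the box C letters occurred in none in the same window and the box D letters in 17 (7.94%). SNORD26, SNORD28 and SNORD10 hold no exact box C in this window, and SNORD28B holds neither box.

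Depth, the number of reads that cover a position, differed between the genes by orders of magnitude. Averaged over its listed positions and the 3 imbalanced dNTP libraries, it was at least 1000 reads in 10 genes, at least 100 in 85 and at least 20 in 128. The 10 deepest genes held 46.4% of the summed depth of all listed box C/D positions. Over all listed positions of the series, the summed depth of an imbalanced dNTP library was 17063930 to 22485865, of which box C/D genes took 10.2% to 13.7%. That of a balanced dNTP library was 22974020 to 34367262, of which they took 8.64% to 11.4%. The tables list different positions, with 2833 box C/D positions in both, so these shares do not compare the dNTP conditions.

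SNORD26, in an intron of the noncoding RNA SNHG1, was the deepest gene, with 3961, 3529 and 4263 reads in replicates 1, 2 and 3 and all of its 53 G, A and C bases listed. SNORD12C, in ZFAS1, followed with 2888, 2415 and 2606 reads. The 3 libraries of SNORD26 all lay above the 3 of SNORD12C. SNORD28 had 1998, 1772 and 2342 reads and SNORD27 had 2126, 1845 and 1708, and both are SNHG1 snoRNAs that guide methylation of 18S rRNA. SNORD104, a guide of 28S rRNA in SNHG25, had 2238, 1737 and 1264 reads. These 3 genes overlapped one another between libraries, so their order is not larger than the spread between replicates. SNORD10, in EIF4A1, had 1835, 1535 and 1552 reads, and SNORD57, an 18S rRNA guide in NOP56, had 1713, 1454 and 1731. SNORD56, also in NOP56, had 1450, 1223 and 1222 reads. SNORD15B, a guide of 28S rRNA in RPS3, had 1304, 1139 and 961, and SNORD12, in ZFAS1, had 1107, 981 and 1093. SNORD10 and SNORD57 overlapped, and so did SNORD56 with SNORD15B and SNORD15B with SNORD12, whereas all libraries of SNORD57 lay above those of SNORD56. Compared library by library, SNORD56 lay above SNORD15B in all 3.

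**Figure D1:**
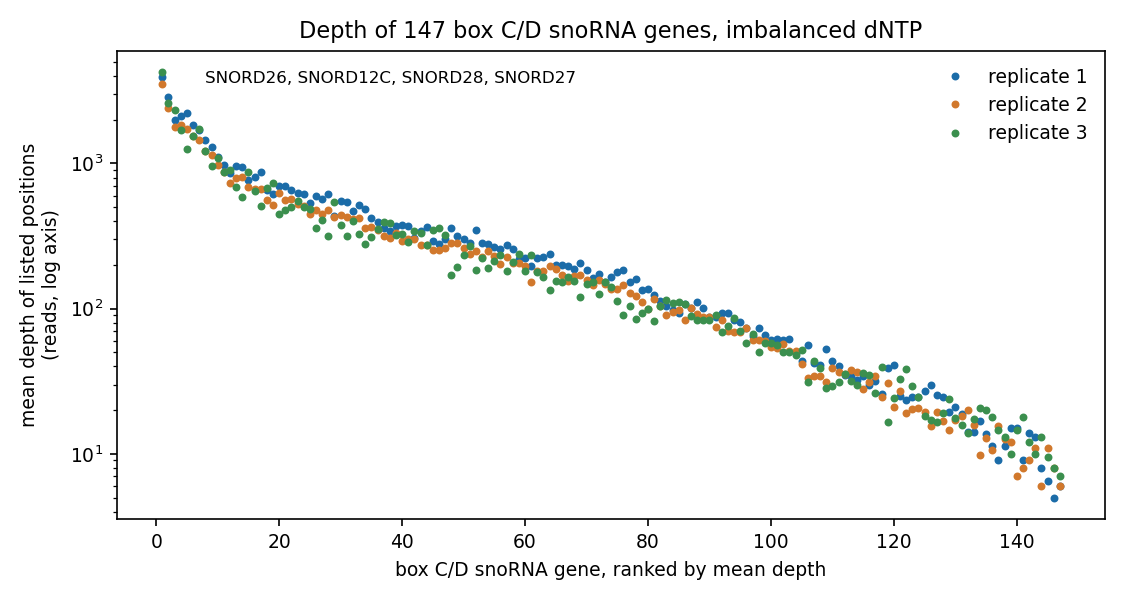
Mean depth of the listed positions of each of the 147 box C/D snoRNA genes under imbalanced dNTP (y axis, reads, log scale), ranked by the mean of the 3 libraries (x axis). Each gene has a point for each replicate, and the 10 deepest genes had a mean of at least 1000 reads.

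The ratio of raw depth between replicates differed from gene to gene. Among the 115 genes with at least 10 positions of depth at least 10, the depth in replicate 3 was 0.423 to 1.30 times that in replicate 1, with a median of 0.830. For replicate 2 against replicate 1 the ratio ran from 0.518 to 1.09, with a median of 0.851. SNORD1B (ratio 0.476), SNORD104 (0.565) and SNORD36B (0.580) were lower in replicate 3, and SNORD41 (1.30), SNORD1C (1.26) and SNORD33 (1.19) were higher, all named after their values were seen.

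Most listed genes lie in protein-coding hosts (97 of 147), 42 lie in long noncoding RNA hosts and 8 in neither. Genes of a single host differed widely in depth. In SNHG1, mean depth fell from 3918 reads in SNORD26 to 333 in SNORD25, with SNORD30 at 421. In NOP56, which encodes a core protein of the same particles, it fell from 1633 in SNORD57 through 1299 in SNORD56 and 566 in SNORD110 to 13.3 in SNORD86. In SNHG16 it fell from 466 in SNORD1C to 15.8 in SNORD1A. The 3 genes in RPL17 lay close together, from 346 in SNORD58A to 294 in SNORD58B. The 4 snoRNAs of the ribosomal protein gene RPL13A lay between 622 (SNORD33) and 298 (SNORD32A).

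Grouped by target, guides of 18S rRNA were listed in 24 of 29 annotated genes, with gene depths between 15.9 and 2037 reads and a median of 238, and SNORD28, SNORD27, SNORD57 and SNORD65 (815) were the deepest. Guides of 28S rRNA were listed in 44 of 49, between 15.8 and 1746 reads with a median of 265, led by SNORD104, SNORD15B, SNORD55 (779) and SNORD60 (710). Of 5 genes listed as guides of U6 small nuclear RNA, 4 had listed positions, SNORD8 at 34.6 reads, SNORD94 at 24.9, SNORD9 at 17.6 and SNORD67 at 12.2. The lists of guides are not complete, and each order holds within its list only. SNORD10 and SNORD26, for example, are known guides of U6 and of 28S rRNA and are on neither list. Of the brain-rich imprinted repeats, none of the 40 genes of SNORD112 to SNORD114 at 14q32 was listed under imbalanced dNTP. Of 83 genes named SNORD115 or SNORD116, 20 were listed, all copies of SNORD116, with a median gene depth of 25.1 reads and the highest in SNORD116-29 (49.4), SNORD116-16 (40.2), SNORD116-1 (38.1) and SNORD116-20 (36.1). Reads that match several copies can be placed at any of them, and their part in these depths was not tested. Among the genes of the core proteins, NOP56 held 21 listed positions outside snoRNA genes and 177 inside them, NOP58 held 14 and 155, and FBL and SNU13 held none.

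Depth outside the snoRNA genes was low or not listed. Of the 147 genes, 107 had no listed position within 100 nt of either end on their strand outside other snoRNA genes, and of the 85 genes with a mean depth of at least 100 reads, 59 had none. A position enters the imbalanced table only with reads of T and a minimum depth, so the depth of positions that are not listed is unknown. Across the 40 genes that had flank positions (183 in all, 60 of them within 10 nt of the gene), the mean depth inside was 19.3, 18.8 and 17.1 times that of the flanks in replicates 1, 2 and 3. The mean ratio was 18.4 ± 1.19 (SD, n = 3, higher inside in 3 of 3 libraries, exact paired permutation test on log2 ratios, p = 0.25, which is the lowest value possible with 3 pairs). This value weights genes by their listed positions. The median of the ratio over the 40 genes was 9.22, and the pooled ratio was 28.5 in the balanced table and 12.7 with flanks of 50 nt. SNORD26 had 17, 17.1 and 25.4 reads over 8 flank positions against 3961, 3529 and 4263 inside. SNORD27 had 9, 8 and 5 reads at a single flank position against 2126, 1845 and 1708. SNORD68, in RPL13, was different: its 5 flank positions, all within 10 nt, had 657, 582 and 639 reads against 855, 733 and 898 inside. SNORD116-19 had 22.8, 19.9 and 37.1 reads in 15 flank positions against 23.3, 19.0 and 38.3 inside, so that inside and outside could not be told apart there. In 5 genes (SNORD116-19, SNORD116-18, SNORD68, SNORD86 and SNORD116-21) the ratio was under 2, and in 19 it was over 10.

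**Figure D2:**
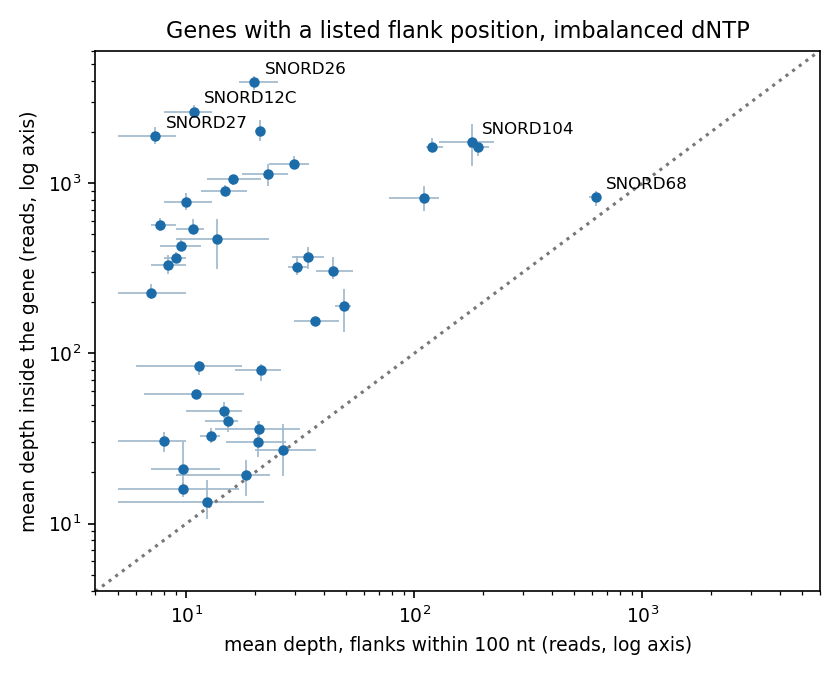
Mean depth inside 40 box C/D snoRNA genes (y axis, reads, log scale) against the mean depth of their listed flank positions within 100 nt (x axis, reads, log scale) under imbalanced dNTP. Points are means of 3 libraries, bars run from the lowest to the highest library, and the dotted line marks equal depth. SNORD68 lies near it, while SNORD26, SNORD12C and SNORD27 lie far above it.

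Within the genes, depth was highest in the middle. In 49 genes that hold both boxes and had a mean depth of at least 100 reads, each gene was divided into 10 equal parts from its 5′ end. The mean depth of part 1 was 0.721, 0.741 and 0.712 times the gene's own mean in replicates 1, 2 and 3. It was 1.14 ± 0.00708 (SD, n = 3) in part 4, 0.912 ± 0.00845 in part 9 and 0.632 ± 0.0101 in part 10. Boxes C and D lie near these ends. Over all 84 genes with both boxes and a position of depth at least 10, box positions had 0.795, 0.809 and 0.804 times the mean depth of the other positions. The mean ratio was 0.803 ± 0.00711 (SD, n = 3), lower in 3 of 3 libraries, with an exact permutation p of 0.25, the smallest possible. Box C alone was at 0.832 ± 0.0180 and box D alone at 0.755 ± 0.0109. Among 52 genes with at least 5 box positions and 10 others, the boxes were less deep in 45, with a median ratio of 0.800.

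**Figure D3:**
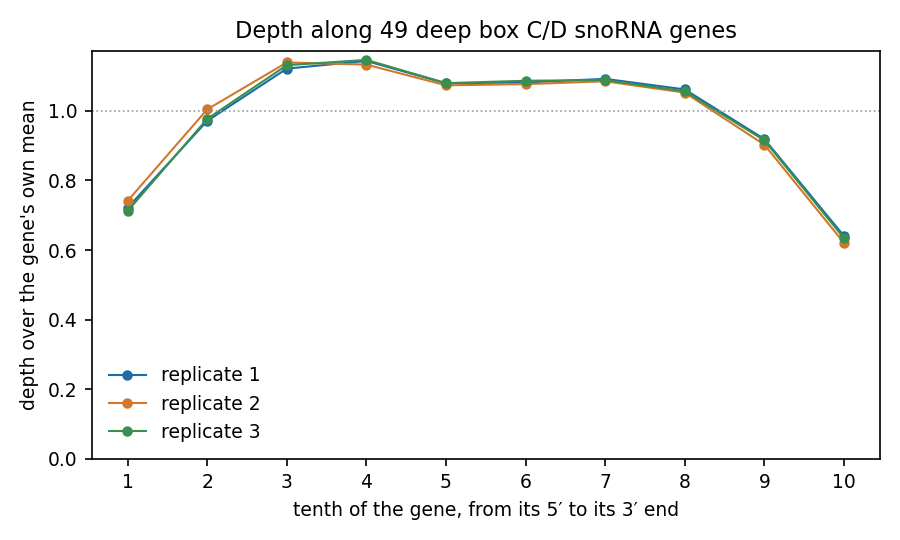
Depth of 49 box C/D snoRNA genes with both boxes and at least 100 reads, averaged over 10 equal parts of the gene from the 5′ to the 3′ end (x axis) and divided by each gene's own mean (y axis). Lines are the 3 imbalanced dNTP libraries, which nearly coincide, with the lowest values in the first and last part.

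Under imbalanced dNTP, reads with T were frequent at G, A and C all along the box C/D snoRNAs. At 2821 positions listed in both tables with 10 or more reads in each of the 6 libraries, T made up 3.45%, 3.59% and 3.39% of the summed depth in the imbalanced libraries (here the T share) and 0.0944%, 0.104% and 0.0987% in their balanced partners. The difference was 3.38 ± 0.101 percentage points (SD, n = 3), higher in 3 of 3 pairs, with an exact paired permutation p of 0.25, the smallest possible. By edgeR's quasi-likelihood test, with Benjamini-Hochberg adjustment over all 32284 positions tested in the series, the mutated share rose at 2585 of the 2821 positions (91.6%) in 113 tested genes and fell at none. Over all tested positions of the series, 74.3% rose and 0.0589% fell. The median log2 change was 4.47 in box C/D positions and 3.94 over all positions. The median of each position's lowest depth was 232 reads for listed box C/D positions and 13 for all listed positions.

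The criteria that the study set for a site, apart from the one on spike-in background, are, in every replicate, a depth of at least 10, at least 3 reads with T and a mutation ratio (reads with T over depth, at one position) above 3 times the ratio in the input. They were met at 3249 of 4879 listed positions (66.6%) in 119 genes, against 16.8% of all positions listed under imbalanced dNTP. The criterion left out compares a position with spike-in RNA that holds no 2′-O-methylation and was also read under imbalanced dNTP. Errors of that reaction at unmodified bases were thus not filtered out. Passing the remaining criteria therefore does not mark a base as methylated. At a depth of at least 100 reads in all 3 imbalanced libraries, 2961 of 3741 positions passed (79.1%), against 75.8% of all listed positions of that depth, so the share of box C/D positions was near the background once depth was similar. The median mutation ratio of the 3249 positions was 3.54%. It was at least 10% at 237 of them and under 5% at 2207. Of them, 998 are not listed in the balanced table. Their input ratio was taken as 0, although their depth there is unknown. In SNORD26, 51 of 53 listed positions met the criteria, in SNORD15B 94 of 99 and in SNORD10 98 of 105.

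The T share was higher in genes of lower depth. Among the 24 genes with a mean depth of at least 500 reads, where a median of 98.0% of the G, A and C bases was listed, the share lay between 3.09% and 4.11% with a median of 3.35%. Among 61 genes between 100 and 500 reads the median was 3.70% with 85.1% of these bases listed. Among 55 genes under 100 reads with a position of depth at least 10 the median was 7.11% with 15.4% listed, and the range was 3.83% to 15.6%. Since a position is listed only where reads with T were seen, the share of a sparsely listed gene leaves out its positions without such reads. The part of this in the relation was not tested. Over 115 genes, depth and T share had a Spearman rho of -0.81, and over the 24 deepest it was -0.23, as descriptions across genes, which share libraries and listing.

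**Figure D4:**
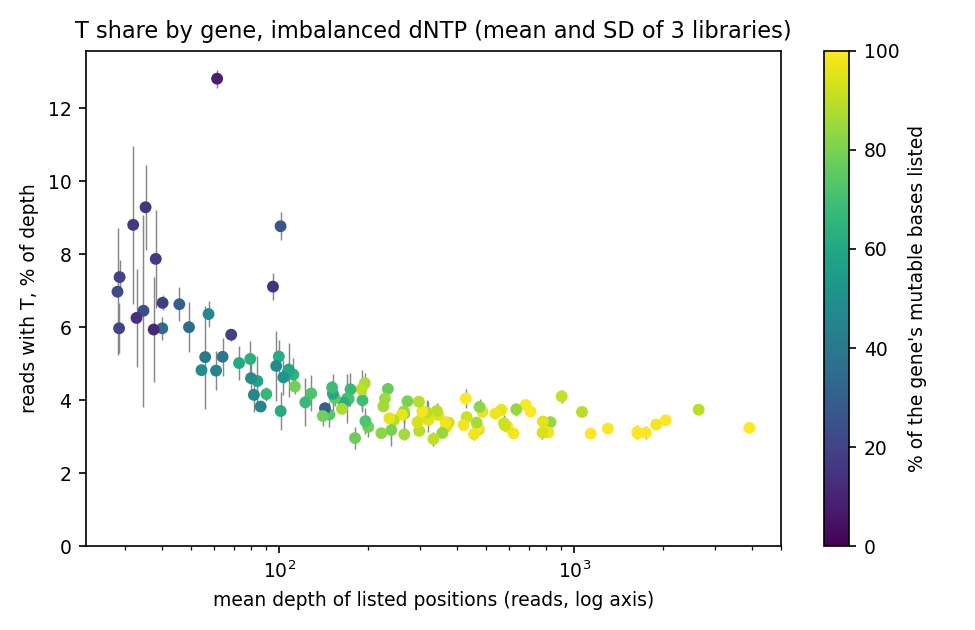
T share of 115 box C/D snoRNA genes (y axis, reads with T in percent of depth, mean and SD of 3 imbalanced dNTP libraries) against the mean depth of their listed positions (x axis, reads, log scale). Colour gives the percentage of the gene's G, A and C bases that are listed, which falls from near 100 in deep genes to under 20 in many shallow ones while the T share rises.

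Among the 115 genes with at least 10 positions of depth at least 10, the lowest T shares were those of SNORD25 (2.93%, 3.13% and 2.77% in replicates 1, 2 and 3), SNORD48 (2.84%, 2.74% and 3.32%), SNORD38A (2.93%, 3.23% and 3.04%), SNORD73A (2.95%, 3.25% and 3.01%) and SNORD15B (3.10%, 3.12% and 3.05%). These overlapped one another. The highest were those of SNORD3P1 (12.8%, 13.1% and 12.6%), SNORD116-24 (9.80%, 7.95% and 10.1%), SNORD88A (6.75%, 11.1% and 8.61%), SNORD28B (9.09%, 8.87% and 8.34%) and SNORD116-1 (8.54%, 6.33% and 8.76%). All 5 were sparsely listed, with between 10 and 14 positions each. SNORD3P1 also had a T share of 5.98% over its 10 positions in the balanced table, at a mean depth of 20.1 reads. At like balanced depth, SNORD116-27 (20 reads) was at 1.86% and SNORD3H (20.2) at 1.82%, while SNORD3G (11.7) was at 6.62%. The 10 deepest genes lay between 0.0758% and 0.108%.

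Among the deep genes, the T share differed between hosts when their genes were pooled. It was 3.80% ± 0.128 (SD, n = 3) in ZFAS1, 3.30% ± 0.0502 in SNHG1 and 3.26% ± 0.103 in NOP56. Single genes did not follow this order throughout, since SNORD110 of NOP56 was at 3.74% ± 0.130, the level of SNORD12C (3.74% ± 0.114) and SNORD12 (3.68% ± 0.117) of ZFAS1. Each base was given the T share that its 3-base context (the base with its neighbours on both sides) had outside snoRNA genes, at positions of depth at least 100, an addition made after the data were seen. On this basis SNORD12C reached 1.03 ± 0.0173 times its context value (3.73% observed against 3.61%) and SNORD12 reached 0.971 ± 0.0125 times (3.68% against 3.79%). SNORD12B, also in ZFAS1, reached 1.15 ± 0.00609 times (4.10% against 3.57%), above 1 in all 3 libraries. SNORD10 reached 0.893 ± 0.00729 times (3.09% against 3.46%), below 1 in all 3 libraries. SNORD26 reached 1.24 ± 0.0277 times (3.24% against 2.61%), above 1 in all 3 libraries, and was the highest of the 75 genes with at least 20 such positions. Over these genes the ratio ran from 0.694 to 1.24 with a median of 1.04, and 50 were within 0.9 to 1.1.

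Base and context were associated with large differences in mutation. Over all positions of depth at least 10, G had a T share of 4.46% ± 0.138 (SD, n = 3, 1719 positions), C of 3.28% ± 0.0744 (1350) and A of 2.66% ± 0.0841 (1775), and the libraries of G lay above all those of C, and those of C above all those of A. At a depth of at least 100, G after U was at 6.39% ± 0.145, after C at 4.46% ± 0.227, after A at 1.93% ± 0.0839 and after G at 1.83% ± 0.0892. A after U was at 4.60% ± 0.213 and A after G at 1.69% ± 0.0458. C before C was at 5.57% ± 0.227 and C before G at 1.53% ± 0.0792. The highest median mutation ratios over contexts were 8.84% in UGU (142 positions), 8.33% in UGC (104) and 7.92% in CGU (34), and the lowest 0.516% in GGG (22) and 0.869% in GGA (49). The 48 context medians of box C/D snoRNAs lay between 0.808 and 1.37 times those of positions outside snoRNA genes, with a median of 1.01 and a Pearson r of 0.98 across contexts.

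Against box H/ACA snoRNAs, which guide pseudouridylation, box C/D snoRNAs had a slightly higher T share, 3.47% ± 0.0992 over 4844 positions against 3.22% ± 0.121 over 4503. The difference was 0.221, 0.241 and 0.291 percentage points in replicates 1, 2 and 3 (mean 0.251 ± 0.0360, n = 3, exact paired permutation p = 0.25). At equal 3-base context and a depth of at least 100 it was 0.307 ± 0.0525 (exact permutation p = 0.25). As a mean of per-gene shares it turned to -1.17 points. Against positions outside snoRNA genes at equal context, the difference was 0.0765 ± 0.0459 points (exact permutation p = 0.25).

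The positions with the highest mutation ratios at a depth of at least 100 were G in a UGU or UGC context. They are shown with up to 10 nt on each side within the gene, in hg38 as RNA, with the mutated base in capitals.
SNORD6 position 5, chr11, 93731570, minus strand: cgauGuuaugaugau
SNORD49A position 64, chr17, 16440099, plus strand: gacuacuccuGucugauu
SNORD45C position 21, chr1, 75787092, plus strand: gaguuggcauGuauucugaau
SNORD12B position 77, chr20, 49280395, plus strand: gccaguuucuGucugauaugc
SNORD10 position 130, chr17, 7576940, plus strand: aucagucuuuGuacucugaga
SNORD111 position 72, chr16, 70538076, plus strand: cacaguuuuuGccuuaugaau
In SNORD10 the G at position 130 had T in 443 of 2584, 408 of 2138 and 384 of 2132 reads under imbalanced dNTP and in 5 of 3338, 2 of 2019 and 2 of 1756 under balanced dNTP. Its mutation ratio was 18.1% ± 0.971 (SD, n = 3) and its log2 change 7.36 ± 0.223 (SE, edgeR). In SNORD12B the G at position 77 was at 17.1%, 19.0% and 19.2%, with 1 T in each balanced library (log2 change 7.69 ± 0.361, SE, edgeR). SNORD6 position 5 was at 19.2%, 21.5% and 16.2%, SNORD49A position 64 at 18.1%, 20.2% and 18.5%, SNORD45C position 21 at between 17.6% and 19.7% and SNORD111 position 72 at 12.4%, 19.8% and 20.8%. The 6 ratios overlapped, so their order is not larger than the spread between replicates. The 6 were picked by their ratio under imbalanced dNTP, which favours a rise over balanced dNTP, and 74.3% of all tested positions rose. All 6 were 2.02 to 2.37 times the median ratio of their context outside snoRNA genes, and SNORD49A position 64 is not listed in the balanced table. In SNORD12B and SNORD49A the base lies 2 nt before box D, in a shared guCUGA ending.

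Few positions stood apart from their context. With a ratio more than 3 times the context median in all 3 libraries as the threshold, 11 of 3741 box C/D positions passed (0.294%), each in a different gene, against 0.619% of positions outside snoRNA genes and 3 of 2659 in box H/ACA genes (0.113%). The share in box C/D genes was thus below the background, and the threshold was set after the data were seen. Among the 11, SNORD42A and SNORD42B, relatives in introns of the ribosomal protein gene RPL23A, each had an A that lies 4 nt before box D in the same local sequence.
SNORD42A position 52, chr17, 28723480, plus strand: gaacaaaggaAccacugaagu
SNORD42B position 55, chr17, 28720604, plus strand: cuucaaaggaAccacugaugc
The A of SNORD42A was mutated in 26 of 252, 19 of 215 and 19 of 239 reads (9.03% ± 1.20, n = 3) and that of SNORD42B in 22 of 202, 20 of 155 and 17 of 202 (10.7% ± 2.25), against a context median of 2.71%. The ranges of the pair overlapped, and neither position is listed under balanced dNTP. The others were in SNORD117 (position 1, 10.7% ± 0.822 against a context median of 2.08%), SNORD54, SNORD89, SNORD12, SNORD87, SNORD16, SNORD28B, SNORD37 and SNORD10 (position 15, a C at 13.4% ± 0.662 against 4.10%).

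Boxes C and D differed from the rest of the genes in opposite directions. Internal C′ and D′ copies were not searched for, so the rest includes any that a gene holds. In genes with both boxes, 423 box positions of depth at least 10 had a T share of 3.64%, 3.72% and 3.62% in replicates 1, 2 and 3, and 2442 other positions had 3.41%, 3.58% and 3.37%. The difference was 0.208 ± 0.0594 percentage points (SD, n = 3, higher in 3 of 3 libraries, exact permutation p = 0.25). As a mean over genes of the difference it was 0.207 points, with an exact permutation p of 0.5, so its sign was not the same in all 3 libraries. Box D was at 4.63% ± 0.0403 and box C at 3.12% ± 0.115, so all libraries of box D lay above those of the rest (3.45% ± 0.112) and all libraries of box C below. Within G, the boxes were 0.421 ± 0.0362 points above the rest, and within C 1.47 ± 0.222 above, while within A they were at -0.71 ± 0.0719 points, each with an exact permutation p of 0.25. Where a gene had a mean depth of at least 100 reads, 90.6% of its box bases other than U and 87.1% of the other such bases were listed.

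At equal 3-base context and a depth of at least 100, a comparison added after the data were seen, the 2 boxes together no longer stood above the rest (-0.0934, -0.0979 and 0.00196 points, exact permutation p = 0.5). Box D was 1.14, 1.04 and 1.25 points above the rest of the same genes (mean 1.14 ± 0.105, n = 3) and box C at -0.80, -0.70 and -0.67 points against it (mean -0.72 ± 0.0645, n = 3), each with an exact permutation p of 0.25. At a depth of at least 300 reads, box D remained 0.816 ± 0.185 points above and box C was at -0.74 ± 0.10 points. The boxes are less deep than the rest, so this listing effect moves with the comparison, and its part was not tested.

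The same G of UGA occurs at position 3 and position 6 of box C, at position 3 of box D and elsewhere in these genes, so it could be compared in 1 context. Any UGA of an internal C′ or D′ copy counts as elsewhere here. At a depth of at least 100 its T share was 3.24%, 3.23% and 3.32% at position 3 of box C (39 positions) and 4.17%, 4.40% and 4.10% at position 6 (45 positions). It was 6.36%, 6.72% and 6.61% at position 3 of box D (38 positions) and 5.33%, 5.37% and 5.14% at UGA in the rest of the same genes (99 positions). None of the 4 sets of libraries overlapped another. Outside snoRNA genes it was 4.98% ± 0.166 over 755 positions and in box H/ACA genes 4.58% ± 0.135 over 70. With the base before it held equal as well, the G of CUGA in box D was 1.5 ± 0.262 points above CUGA elsewhere in the genes (5.07% over 48 positions), higher in 3 of 3 libraries with an exact permutation p of 0.25. Position 3 of box C was lower in both forms of the box. In boxes that open with A, its G was at 3.85% ± 0.299 (22 positions), a difference of -2.15 ± 0.446 points from AUGA elsewhere (6.00% over 26 positions). In boxes that open with G it was at 2.63% ± 0.195 (17 positions), a difference of -1.65 ± 0.301 points from GUGA elsewhere (4.27% over 12 positions). Both differences were below 0 in 3 of 3 libraries, each with an exact permutation p of 0.25. At a depth of at least 300, the difference was 0.865 ± 0.454 points for box D, -2.20 ± 0.398 for box C with A and -1.82 ± 0.419 for box C with G, the last over 10 and 6 positions. Single positions varied widely, from 1.01% to 15.5% at position 3 of box D and from 0.990% to 6.26% at position 3 of box C.

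The other positions of the boxes followed the same split except the first of box C. The opening base of box C (A or G) was at 5.34% ± 0.324 against 4.51% ± 0.253 in the same contexts of the rest. The A at position 4 was at 1.75% ± 0.121 against 2.19% ± 0.103, and the A that closes box C was at 1.07% ± 0.0931 against 1.82% ± 0.0680. In box D, the C was at 4.55% ± 0.150 against 3.29% ± 0.121 and the closing A at 2.39% ± 0.140 against 1.55% ± 0.0542. In each of the 8 comparisons the 3 libraries of the box lay apart from the 3 of the rest.

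**Figure D5:**
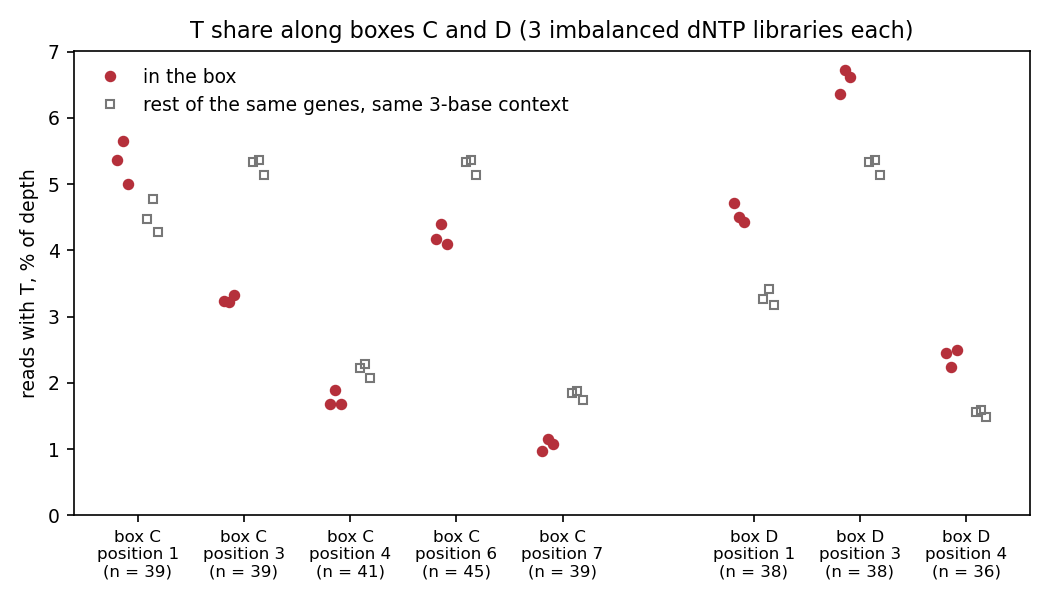
T share at the positions of boxes C and D that hold G, A or C (filled points, reads with T in percent of depth, one for each of 3 imbalanced dNTP libraries) and in the rest of the same genes at the same 3-base contexts (open squares). Positions 3 to 7 of box C lie below the squares, and position 1 of box C and all positions of box D lie above them.

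Per gene, the boxes were compared with the rest without holding the 3-base context equal. Of 52 genes with at least 5 box positions and 10 others, 21 had a higher T share in the boxes in all 3 libraries and 11 a lower one, with a median difference of 0.202 points. SNORD1B (5.83% in boxes against 3.72%), SNORD30 (5.05% against 3.09%) and SNORD69 (5.34% against 3.41%), guides of 28S rRNA, had the largest differences upward, between 1.93 and 2.11 points. SNORD11B (2.88% against 5.26%), SNORD41 (2.69% against 4.19%) and SNORD110 (2.76% against 3.92%) had the largest downward. The difference was 2.45, 2.02 and 1.85 points in the 3 libraries of SNORD1B and -2.09, -3.89 and -1.15 in those of SNORD11B, which had 5 box positions. These genes were picked as the ends of the ranking by this difference, so their separation is no test of whether genes differ.

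Depth itself was compared between the dNTP conditions, at the deepest position of each gene that is listed in both tables, since a change in dNTP could alter how many reads pass an RNA. With edgeR (TMM scaling and the replicate number as a block, adjusted over 851 genes), 32 of 115 box C/D genes had a higher depth under imbalanced dNTP (27.8%, against 12% of all genes) and 17 a lower one (14.8%, against 13.2%). The share that rose was above that of all genes and the share that fell was near it. Listed box C/D positions were deeper (median lowest depth 232 reads against 13 for all listed positions), and no share at equal depth was computed. The median log2 change was 0.079 in box C/D genes and -0.019 over all genes. The split between higher and lower calls moved with scaling, from 65.3% higher to 80.6% with DESeq2 (31 genes called) and 52.9% without TMM (51 genes). Without TMM, 27 box C/D genes were higher and 24 lower, with a median log2 change of 0.0023. Without the replicate block 7 genes were called, and without replicate 1 the number was 27.

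SNHG1 snoRNAs rose in 4 of 5 genes, where 12% of all genes rose. SNORD26 had 5889, 5272 and 6303 reads under imbalanced dNTP and 6973, 4762 and 5424 under balanced dNTP at the position compared, with deeper balanced libraries (log2 change 0.55 ± 0.0286, SE, edgeR adjusted p = 1.85e-10). SNORD27 (0.27 ± 0.0362, edgeR adjusted p = 2.24e-05), SNORD28 (0.22) and SNORD30 (0.45) also rose. Without the replicate block, the calls of SNORD27 and SNORD28 were lost (edgeR adjusted p = 0.294 and 0.390). In NOP56, SNORD57 (0.36) and SNORD56 (0.35) rose, calls also lost without the block (edgeR adjusted p = 0.0905 and 0.175), and SNORD110 was at 0.10 (edgeR adjusted p = 0.230). In RPL13A, SNORD32A, SNORD34 and SNORD35A fell, by 0.33, 0.16 and 0.20 on the log2 scale, and SNORD33 rose (0.29). None of 3 ZFAS1 genes passed, with SNORD12C at -0.04, SNORD12 at 0.10 and SNORD12B at 0.05.

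By group, 7 of 23 tested 18S guides rose and 3 fell, and 15 of 41 tested 28S guides rose and 9 fell, beside 12% and 13.2% of all genes and 27.8% and 14.8% of all tested box C/D genes. The largest changes, named after their values were seen, were in SNORD3H (134, 130 and 105 reads against 38, 24 and 10) and SNORD3G (59, 50 and 44 against 8, 17 and 12), with log2 changes of 2.91 ± 0.171 (edgeR adjusted p = 8.33e-10) and 2.57 ± 0.264 (edgeR adjusted p = 1.15e-06). Both are annotated copies of U3 outside the genes left out, and in both the imbalanced libraries lay above all balanced ones. SNORD88A fell, with 24, 19 and 32 reads against 127, 79 and 90 (log2 change -1.45 ± 0.168, edgeR adjusted p = 4.76e-06), and SNORD88C with 39, 30 and 51 against 136, 102 and 108 (-1.01 ± 0.149, edgeR adjusted p = 6.88e-05). These 2 are relatives in 1 host.

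Some shallow genes resemble a deeper one. With a local alignment that spans 50 nt or more, at an identity of at least 85%, to a SNORD gene at least 5 times deeper, 6 of the 147 genes had a relative. SNORD28B matched SNORD28 at 87.3% over 71 nt, with 9 substitutions (SNORD28's base first, positions from its 5′ end): U28G, U40A, C42U, A43G, A45C, U52G, G62A, C67G and G69U. SNORD28B had 93.1, 98.0 and 112 reads over 13 listed positions and no position in the balanced table, and SNORD28 had 2037 on average. SNORD65B matched SNORD65 at 92.9%, with 57.0 reads, SNORD65C at 89.0%, with 18.6, and SNORD18B matched SNORD18A at 87.3%, with 61.0. SNORD13E resembled SNORD13 (88.5%) and SNORD56B resembled SNORD56 (89.9%), each with 1 listed position.

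The highest T ratios of all were at shallow positions. Over all depths from 10 reads, 14 box C/D positions in 8 genes had at least 20% T in each of the 3 imbalanced libraries, all of them at positions outside the comparison at 100 reads. Of these, 11 lie in SNORD28B or in copies of U3 (SNORD3P1, SNORD3G, SNORD3H and SNORD3J), and these were aligned with SNORD28 and with SNORD3A, a comparison added after the data were seen. The 4 positions with the highest ratios are all ones where the relative holds U in place of the listed base. At position 28 of SNORD28B (U28G, with SNORD28's base first), T was read in 10 of 11, 12 of 13 and 16 of 16 reads. At position 34 of SNORD3P1 (U34C against SNORD3A, with the positions of SNORD3A) it was read in 34 of 35, 30 of 30 and 22 of 22. SNORD3J (U121G against SNORD3A) had T in 11 of 14, 12 of 12 and 13 of 13 reads and SNORD3G (U29C) in 13 of 18, 9 of 11 and 13 of 14. None of the 4 positions is listed in the balanced table. At the other 7 positions in these genes, the relative does not hold U and the mean ratio was between 21.9% and 46.3%. Outside them, SNORD68 position 69 (37.9%), SNORD12C position 83 (37.4%) and SNORD88A position 57 (35.8%) had 13 to 57 reads in each library. Reads that match both members of a pair can be placed at either, and their part in the T shares and depths of SNORD28B and the U3 copies was not tested. Nor was the part of shared reads in the T shares of single SNORD116 copies.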

How the data were processed

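Nm-mut-seq of HepG2 caRNA gave 6 libraries, an imbalanced and a balanced dNTP library for each of 3 replicates, sequenced as single-end reads of 100 nt. The authors used Cutadapt for adapter trimming and BBMap to collapse reads of one molecule by identifier, then aligned reads to hg38 in TopHat2, with mismatches and several placements of a read allowed, and tallied bases in JACUSA. Versions are not given in the sources used here. The values deposited are raw counts of reads with each base, for every listed position and library, without normalization. JACUSA's score was not used.

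Positions were placed in GENCODE release 44 genes on their own strand, and all reference bases matched hg38. The members, lists and tests were chosen with earlier results of these data known. T shares divide summed reads with T by summed depth over positions with at least 10 reads in all libraries compared. Mutated and unmutated reads per position, and depth per gene, were fitted over the whole series with the quasi-likelihood test of edgeR 4.0.16 (R 4.3.3), adjusted by Benjamini-Hochberg with a threshold of 0.05. Fisher's exact test and DESeq2 1.42.0 served as alternatives, and the fits were tested on simulated data. Other values came from Python 3.11.15 with two-sided exact sign-flip permutation tests over the 3 replicates. Whether the 3 replicates are separate cultures is not stated beyond the label biological replicate, and p-values speak for these libraries only. With 3 differences of equal sign, the exact permutation test gives a p of 0.25 whatever their spread. Intervals over libraries do not include counting error of single positions.

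Named were the 10 deepest genes, the 5 highest and 5 lowest by T share, the 3 highest and 3 lowest by box difference, the 6 positions of highest ratio at a depth of at least 100 and up to 4 deepest genes per list, with others named for a count, a host or a relative.

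Replicate numbers pair the libraries, since each pair came from 1 ligated RNA. At 2765 box C/D positions with at least 50 reads, deviations of log2 depth from the replicate mean correlated at 0.78, 0.62 and 0.87 within pairs 1, 2 and 3. Deviations of replicate 1 also went with those of replicate 2 (0.70 and 0.58), so the check separates replicate 3 only.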

Additional observations from a re-analysis of the deposited data

How the results depend on the processing

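Alternatives that left out a replicate gave 3.32 to 3.42 points for the T share above the balanced libraries. They gave 2032 to 2229 positions with a changed share and 3414 to 3614 positions that met the criteria without the spike-in. For boxes against the rest they gave 0.187 to 0.243 points, and 0.798 to 0.808 for the depth of the boxes. The difference from box H/ACA was 0.230 to 0.266 points and the depth over the flanks 17.9 to 19.1. Genes of changed depth numbered 27 to 41. The number of positions that met the criteria fell to 705 where each replicate had to reach a ratio of 0.05. It fell to 142 for a ratio of 0.1. For boxes against the rest, box C alone gave -0.33 points and equal context gave -0.063 (depth at least 100) and -0.19 (depth at least 300), the last pair added after the data were seen. The difference from box H/ACA snoRNAs was -1.17 points as a mean of per-gene shares. Genes of changed depth numbered 31 with DESeq2 and 7 without the replicate block, which moved the positions with a changed share only from 2585 to 2692. Among the single genes and positions followed, 154 alternatives kept direction and side of the threshold, 11 lost the call, 2 gained it and 1 changed sign (SNORD12C depth, from -0.04 to 0.0078 without replicate 2, with -0.028 without replicate 3). The cause of these changes was not tested. Listing is a limit: positions without reads of T have no depth here, so shares of shallow genes and all flank depths cover listed positions only, and the exact test of 3 pairs cannot go below a p of 0.25.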
